A study of Mus musculus with 62 samples.

Results

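The chaperone and proteasome genes described here were 77 of the 10476 genes of the study's count table. The rule was the symbol, and it used no measured value: Psma to Psmg for the proteasome, Hsp for heat shock proteins, Dnaj for their J-domain partners, Cct followed by a digit for the cytosolic chaperonin, Bag followed by a digit, and Pfdn for prefoldin. Of the 23877 transcripts in the table, 176 belonged to these genes, and 1 transcript was read for each gene. By class the set held 11 genes of the 20S core, 13 of the 19S particle, 5 activators and assembly factors of the proteasome, 6 Hsp70 or Hsp110 proteins, 5 small heat shock proteins, 5 chaperonin genes, 25 J-domain proteins, 2 Bag proteins and 3 prefoldin subunits. The other 2 genes, Hspg2 and Hspbap1, carry the symbol only: Hspg2 encodes perlecan, a proteoglycan of basement membranes. Every transcript in the table lay on the plus strand, so these 77 genes were the plus-strand share of 144 protein-coding genes with such symbols in GENCODE M21. The 67 genes of the minus strand, all 3 Hsp90 genes among them, are not analysed here.

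The study examined RPL3L, a paralog of the ribosomal protein RPL3 made in heart and skeletal muscle. Hearts were from male C57BL/6J mice aged 10 weeks, 4 Rpl3l+/+ and 4 Rpl3l-/-, the latter carrying on both alleles and in every cell a CRISPR-Cas9 deletion of exon 2 that shifts the reading frame. Frozen heart tissue was lysed, so all its cell types contributed. C2C12 cells, a mouse myoblast line, were infected with a pCX4/puro retrovirus that encoded mouse RPL3 (RPL3 OE), mouse RPL3L (RPL3L OE) or no insert (control), were selected with puromycin and were harvested as proliferating myoblasts, 3 cultures per group. RNA-seq of polyadenylated RNA and Ribo-seq, which reads the mRNA fragments that single ribosomes shield from RNase I, covered all of these samples, and Disome-seq, which reads the longer fragments under 2 stacked ribosomes, covered the hearts.

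The proteasome breaks down proteins tagged with ubiquitin: the barrel of the 20S core holds the protease sites, and the 19S particle binds the tagged substrate, unfolds it and threads it into the barrel. Chaperones keep proteins from aggregating, with Hsp70 working in cycles driven by ATP and steered by J-domain and Bag partners, chaperonins enclosing a folding chain, prefoldin handing chains to the cytosolic chaperonin, and small heat shock proteins holding unfolded chains without ATP. Heart muscle, whose sarcomere proteins are under constant mechanical load, is known for abundant small heat shock proteins and for Bag3, which joins them to Hsp70 in the clearance of damaged filament proteins.

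Library totals ran from 3594696 to 22425296 counts in heart RNA-seq, from 1606700 to 3192090 in heart Ribo-seq, from 39016 to 175747 in Disome-seq, from 7647102 to 29746110 in C2C12 RNA-seq and from 3167026 to 6093268 in C2C12 Ribo-seq. Heart RNA-seq depth differed by genotype. It was 3594696 to 14041366 (median 4789635.5) in Rpl3l+/+ and 10930435 to 22425296 (median 15397962) in Rpl3l-/- hearts. The deleted gene followed the labels: Rpl3l stood at 369 to 541 CPM (counts scaled to library size) in Rpl3l+/+ and at 24.4 to 40.4 in Rpl3l-/- heart RNA-seq. In C2C12 RNA-seq it stood at 0.168 to 0.568 CPM in control cells and at 1985 to 2045 in RPL3L OE cells. Of 12 cardiomyocyte markers, 6 were in the table, and their summed level was 39992 to 56283 CPM in heart RNA-seq and 231 to 306 in C2C12. Heart libraries also held airway and blood transcripts in unequal amounts: the summed level of 5 airway markers in RNA-seq ranged from 0.286 to 385 CPM in Rpl3l+/+ and from 0.180 to 1272 in Rpl3l-/- hearts, and that of 4 blood markers from 4408 to 7118 and from 5039 to 10751. In Ribo-seq the airway markers ranged from 2.74 to 871 CPM in Rpl3l+/+ and from 0 to 2541 in Rpl3l-/- hearts. Of the 77 genes, 63 passed the filter on low counts (a mean of at least 10) in RNA-seq and Ribo-seq of both sources, 6 passed in some, and 8 passed in none (Psma8, Psmb11, Dnajb8, Dnajc22, Dnajc5b, Dnajc5g, Cct8l1 and Hspb9, with at most 34 counts in any library).

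The level of each gene was first read as TPM, the counts divided by coding length and scaled to the same total in each library, so that genes could be compared with each other. Footprint levels were put on the same scale. In bulk samples such as these, fewer cells of a type and less RNA per cell cannot be told apart. Values are mean TPM ± SD over 4 Rpl3l+/+ hearts or 3 control cultures. On this scale the abundant members of the heart were small heat shock proteins and Hsp70. Hspb7, a small heat shock protein of muscle, stood at 3832 ± 843 in heart mRNA, Hspa8, the constitutive cytosolic Hsp70, at 2189 ± 240.2, Hspb6 at 1444 ± 136 and Hspb1 at 1325 ± 186. In control C2C12 cells Hspa8 was highest, at 2889.7 ± 53.2, followed by Hspb1 at 1793 ± 27.9 and Hspe1, the lid of the mitochondrial chaperonin, at 1733 ± 117. Hspb7 was close to the floor there, at 0.403 ± 0.149. Together the 77 genes took 2.64% to 3.01% of all counts in heart RNA-seq and 3.24% to 3.53% in heart Ribo-seq, and 2.80% to 2.93% and 3.57% to 3.68% in C2C12.

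The standard genes of the catalytic core were expressed in both sources. Psmb6, the beta subunit that carries one of the protease activities, was the highest 20S gene in the heart at 576 ± 69.8, and stood at 595 ± 14.2 in C2C12. Psma5, a subunit of the outer ring, was the lowest of the standard subunits in the heart at 197 ± 21.1, against 519 ± 15.9 in C2C12. The 3 tissue-specific subunits were lower: Psmb8, which replaces a standard beta subunit in the immunoproteasome, stood at 64.7 ± 8.04 in the heart and at 1 count over all 3 control C2C12 libraries, and the testis subunit Psma8 and the thymus subunit Psmb11 were at or near 0.

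The 19S genes spread widely in heart mRNA and less widely in heart footprints. Psmc3, an ATPase of the base, stood at 556 ± 21.8 in mRNA, Psmd11, a scaffold subunit of the lid, at 102 ± 22.2, and Psmd14, the deubiquitinase of the lid, at 93.2 ± 11.8. In Ribo-seq of the same genotype the 3 genes stood at 428 ± 43.2, 263 ± 11.4 and 217 ± 14.9. The footprint values therefore lay closer together than the mRNA values of these subunits, which occur once each in the particle. Over the 12 genes that encode parts of the finished particle (without Psmd9, an assembly factor), the SD across genes was 55.3% to 59.1% of the mean in the 4 mRNA libraries and 27.9% to 29.5% in the 4 footprint libraries. The ranges did not overlap, and they did not in Rpl3l-/- hearts, at 54.0% to 61.6% and 26.6% to 34.6%. In control C2C12 cells the same figure was 20.9% to 21.8% for mRNA and 16.02% to 16.29% for footprints. The 3 chaperonin subunits in the table (Cct3, Cct4, Cct7) went the same way in Rpl3l+/+ hearts, at 22.8% to 25.3% for mRNA and 1.90% to 13.0% for footprints. The 8 standard 20S genes lay closer, at 27.0% to 32.8% for mRNA and 23.5% to 26.9% for footprints, and went the opposite way in control C2C12 cells, at 24.1% to 25.7% and 31.8% to 34.2%. In Rpl3l-/- hearts they were at 25.7% to 33.8% for mRNA and 31.0% to 38.3% for footprints, with overlapping ranges. The J-domain proteins, which form no complex together, stood at 63.4% to 71.3% for mRNA and 71.9% to 76.8% for footprints in the heart. In control C2C12 cells their footprints lay closer together than their mRNA too, at 89.4% to 91.9% against 95.5% to 98.8%. These are descriptions over genes of the same libraries, and no test was made of them.

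**Figure D1:**
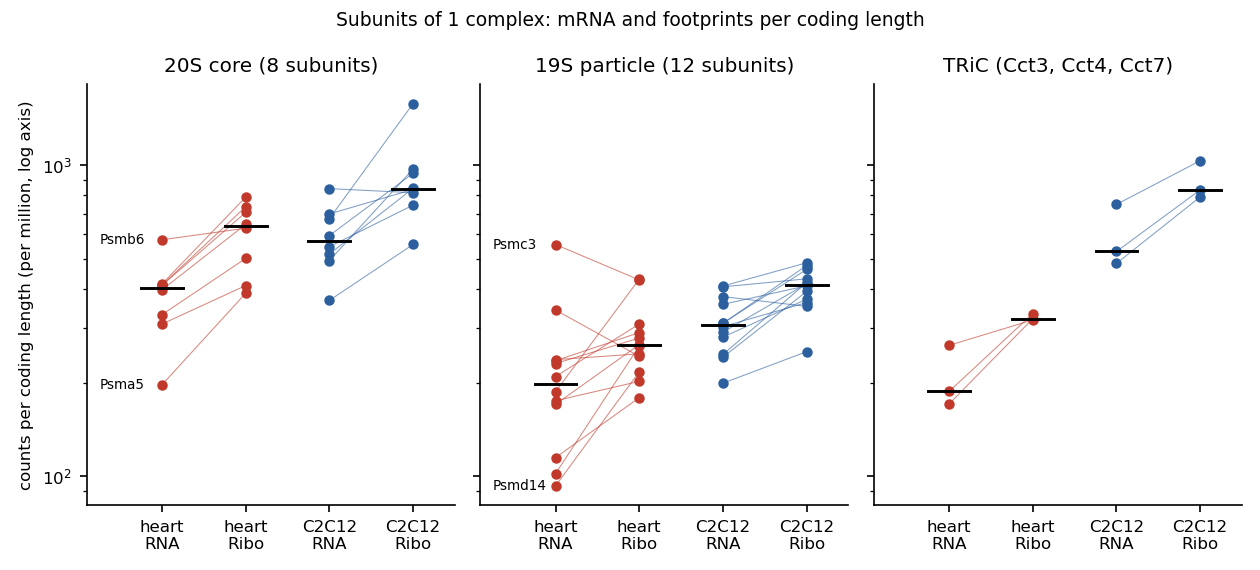
TPM of each subunit gene (points, log scale) in mRNA and in footprints of Rpl3l+/+ heart and control C2C12 cells, with bars at the median, for the 8 standard 20S, 12 19S and 3 chaperonin genes. The 19S points of heart mRNA spread over 5.74- to 7.07-fold in single libraries and those of heart footprints over 2.39- to 2.68-fold.

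Among the activators, Psme1, a subunit of the interferon-inducible PA28 cap, was high in the heart at 574 ± 59 and low in C2C12 at 81.3 ± 5.38, whereas Psme3, the nuclear PA28 cap, went the opposite way at 99.6 ± 17.8 and 424 ± 17.2. Psme4, the PA200 cap, stood at 99.2 ± 12.7 and 73.3 ± 0.411, and the assembly factors Psmg2 and Psmg4 at 89.3 ± 4.17 and 66.4 ± 8.79 in the heart.

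Within the Hsp70 group, Hspa5, the Hsp70 of the endoplasmic reticulum, stood at 703 ± 109 in heart mRNA and at 1614 ± 151 in heart footprints, whereas Hspa8 stood at 2072 ± 302 in footprints. Hspa4l, Hspa12b, Hspa1l and Hspa2 were all under 30 in heart mRNA. Hspa1l counts may hold reads of its close stress-inducible relatives, since the authors allowed reads with several mapping places, and the same holds for Hspa8 and Hspe1, which have many processed copies in the genome. Among the genes classed by symbol as small heat shock proteins, Hspb11 was lowest of those expressed, at 21 ± 8.47 in the heart.

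Hspe1 lies on chromosome 1 of GRCm38 (plus strand, transcript 55088132 to 55091307) and stood at 993 ± 103 in heart mRNA. Heat shock genes are known to be switched on by the factor Hsf1, which binds inverted repeats of a short unit, and the promoters were searched for 3 such units in a row (GAA and TTC in alternation, each pair separated by 2 bases of any kind, both strands). RefSeq promoters on GRCm38.p6, from 250 bases before to 50 after the start, were held for 64 of the 77 genes, and 2 of them (3.13%) had a match against 179 of 27025 symbols in all (0.662%). These were Hspe1, at chr1:55088053-55088082, and the J-domain gene Dnajb6, at chr5:29735844-29735873, and both stretches are shown because no other member had a match and the heart comparison turns on Hspe1.
Hspe1: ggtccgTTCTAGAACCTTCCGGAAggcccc
Dnajb6: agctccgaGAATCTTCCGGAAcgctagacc
Capitals mark the matched units, both stretches are written 5′ to 3′ on the plus strand, and the Hspe1 run holds 2 overlapping matches, from 89 to 72 bases before the start. A match describes the letters of the window and is not a site of binding.

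The other chaperonin genes, Cct3, Cct4 and Cct7, which encode subunits of the ring that folds actin and tubulin, stood at 171 ± 20.8, 188 ± 6.01 and 264 ± 17.5 in the heart. In C2C12 they were higher, at 528 ± 11.3, 484 ± 9.28 and 749 ± 10.8. Among J-domain proteins, which deliver clients to Hsp70 and start its ATPase, Dnajc8 (227 ± 9.42), Dnaja3 of mitochondria (173 ± 25.7) and Dnaja4 (163 ± 11.7) led in the heart. Dnaja1, a main cytosolic partner of Hsp70, led in C2C12 at 529.5 ± 7.08. Dnajc5b was at 0 in all of these libraries.

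Bag3 stood at 253 ± 24.9 in heart mRNA against 59.1 ± 0.337 in C2C12, and Bag6, which escorts proteins that missed their membrane, at 134 ± 10.9 and 143 ± 4.17. Of the prefoldin subunits Pfdn5 was highest at 871 ± 79.8, Pfdn2 stood at 318 ± 31.7 and Pfdn4 at 50.9 ± 15.6.

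Translational efficiency (TE), the log2 ratio of Ribo-seq over RNA-seq per coding length, had a median of 0.45 over 67 members in Rpl3l+/+ heart and of 0.60 over all 5801 genes. By class the heart medians were 0.80 for Hsp70, 0.69 for small heat shock proteins, 0.62 for chaperonins, 0.59 for the 20S core, 0.18 for the 19S particle and -0.71 for prefoldin. Single genes ranged from -3.32 for Dnajc14, a J-domain protein of the endoplasmic reticulum, to 2.34 for Hspg2. Dnajc14 was also lowest in control C2C12 cells, at -2.23. There the median was 0.59 for members and 0.39 for all genes, with 0.86 for the 20S core, 0.55 for the 19S particle and 0.61 for prefoldin. Over the 8 standard 20S genes, without Psmb8, it was 0.82.

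To ask which of these genes set heart apart from myoblasts, Rpl3l+/+ heart was compared with control C2C12 cells, a contrast in which tissue, culture and preparation cannot be told apart. The fit (edgeR) centred each library by TMM, which takes most genes as unchanged, and called a gene at an adjusted p under 0.05. Of 68 members tested in RNA-seq, 33 were called higher and 20 lower in heart, which is 77.9% beside 82.1% of all genes. Their median log2 fold change was 0.31 and that of all genes -0.02. When library totals were used in place of TMM the split was 17 higher and 45 lower, and the median of all genes moved by -0.76. The direction turned from higher to lower for 22 of the 68 members, 12 of which were called under both scalings, and for none the other way, so the directions below are relative to the other genes.

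Both Bag genes and 3 of 4 small heat shock genes were called higher in heart. After the median of all genes was subtracted, the class medians were 2.94 for small heat shock proteins (3 of 4 higher, 1 lower), 1.82 for Bag (2 of 2 higher) and 1.09 for Hsp70 (4 of 6 higher, 1 lower), against 0.41 for the 20S core (5 higher, 2 lower), 0.15 for the 19S particle (6 higher, 3 lower) 0.58 for activators and assembly factors (3 and 2), 0.32 for prefoldin (2 and 1), 0.00 for J-domain proteins (7 and 7) and -0.61 for chaperonins (0 and 3). Hspb7 and Psmb8 passed the filter through heart alone, and without them (a choice made after seeing the data) the medians were 0.40 for the other 3 small heat shock genes and 0.27 for the other 8 genes of the 20S core. Classes were not tested against each other. Hspb7 reached a fitted log2 fold change of 13.84 ± 0.24 (SE) against only 6 counts in all control libraries. The ratio of its mean CPM values, taken apart from the fit, was 9564 with a 95% counting interval of 4394 to 26063. Psmb8 had 1 count in the control libraries, a ratio of 2437 and an interval of 437 to 96262. Hspb6 was higher in heart by 5.46 ± 0.14, Hspa12b, an Hsp70 of blood vessel lining, by 5.40 ± 0.20 and the J-domain protein Dnaja4 by 4.47 ± 0.12. Psme1 was higher by 3.61 ± 0.12, Bag3 by 2.89 ± 0.10 and Dnajb5 by 2.84 ± 0.14. Hspa1l (4.22) and Dnajc12 (3.88) completed the 10 largest rises.

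The genes lower in heart were led by the stress-inducible J-domain protein Dnajb1 (-1.72 ± 0.19), Dnajc10 of the endoplasmic reticulum (-1.42 ± 0.11), Psme3 (-1.30 ± 0.13) and Pfdn4 (-1.27 ± 0.18). Hspa4l, Dnaja1, Psmd14, Cct3, Hspb11 and Cct7 followed, at -0.96 to -0.71. Hspe1 stood at 0.00 ± 0.13 and Hspa8 at 0.40 ± 0.12 with TMM, but at -0.77 and -0.36 with library totals.

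In TE 3 members were higher and 36 lower in heart of 67 tested, 58.2% beside 48.3% of all genes, with a median of -0.49 against -0.12. With library totals the split was 14 higher and 20 lower, the median of all genes moved by 0.37, and 11 members turned from lower to higher. With TMM all 5 called of 9 20S genes and all 10 called of 13 19S genes were lower, where 28.2% of all genes were called lower and 20.2% higher. The class medians were -0.84 and -0.61, or -0.72 and -0.48 after the median of all genes was subtracted. With library totals 1 gene was called higher and 4 lower in the 20S core, and 1 and 5 in the 19S particle. The class medians were then -0.46 and -0.23. Psmb8, which passed the filter through heart alone, enters the 20S medians with a TE change of -2.08 ± 2.26 and 1 count in control RNA-seq. Without it (a choice made after seeing the data) the 20S median falls midway between Psma4 and Psma5. These genes were at -0.84 and -0.37 with TMM, and at -0.46 and 0.01 with library totals. Pfdn5 was lower, at -1.77 ± 0.17, Psmc3 at -1.28 ± 0.13, Psmb6 at -1.20 ± 0.16, Dnajc14 at -1.55 ± 0.20 and Hspa1l at -3.64 ± 0.53. Hspg2 (1.11 ± 0.16), Hspa4l (1.06 ± 0.18) and Psme4 (0.91 ± 0.12) were the 3 that were higher.

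Loss of RPL3L was then examined in the heart, where the question is whether the quality-control genes respond to ribosomes that lack it. No member was called in RNA-seq: 0 of 68 passed in edgeR, beside 0.0159% of all genes (1 gene of 6302, Rpl3l itself), and none had an unadjusted p under 0.05, beside 2.32% of genes. DESeq2 called none either. The median log2 fold change (Rpl3l-/- over Rpl3l+/+) was 0.03 and that of all genes 0.01, and the members ranged from -0.29 to 0.36. The 20S core had a median of 0.02 and the 19S particle of 0.04. The summed TPM of the 20S genes was 2898 to 3387 in Rpl3l+/+ and 3017 to 3257 in Rpl3l-/- hearts, and that of the 19S genes was 2548 to 2895 and 2651 to 2963, so both pairs of ranges overlapped.

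The members with the smallest unadjusted p in RNA-seq were Bag3 and the testis-enriched Hsp70 Hspa2 among those higher in Rpl3l-/- hearts, at 0.18 ± 0.11 and 0.36 ± 0.26, and Dnajc12 and Dnajc10 among those lower, at -0.29 ± 0.21 and -0.17 ± 0.14. All had an adjusted p of 0.999. Dnajc10 was at 28.7 CPM in Rpl3l-/- heart 2 and at 36.4 to 38.0 in the other 3. Bag3 mRNA stood at 215, 218, 223 and 224 CPM in Rpl3l+/+ hearts and at 286, 239, 215 and 255 in Rpl3l-/- hearts. The third Rpl3l-/- heart lay within the Rpl3l+/+ range, so the groups overlapped. Hspa8 gave 0.16 ± 0.13, Dnaja1 0.26 ± 0.24, Hspb7 -0.03 ± 0.13 and Hspe1 0.02 ± 0.14, none of them distinguishable from 0.

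In Ribo-seq 1 of 67 members was called (1.49%, beside 0.688% of all genes, which were 25 higher and 12 lower). This was Hspe1, whose footprints fell. They stood at 231, 209.7, 206 and 249 CPM in Rpl3l+/+ hearts, from 471 to 759 reads. In Rpl3l-/- hearts they stood at 134, 145, 183 and 169 CPM, from 258 to 341 reads. Every Rpl3l-/- heart lay below every Rpl3l+/+ heart, and the means were 224 ± 19.9 and 158 ± 22.2 CPM (SD, n = 4 each). The log2 fold change was -0.51 ± 0.11, adjusted p = 0.043 in edgeR, with a 95% interval of -0.72 to -0.30, a level 0.702 of that in Rpl3l+/+ hearts. Hspe1 mRNA, by contrast, was at 172, 157, 119 and 169 CPM in Rpl3l+/+ and 142, 189.6, 149 and 144 CPM in Rpl3l-/- hearts, with overlapping groups. The call was narrow: the adjusted p was 0.00353 in DESeq2, 0.0279 with library totals, 0.0603 with 1 transcript per gene in the fit and 0.0508 without the filter on low counts. Leaving out 1 library at a time gave changes of -0.59 to -0.44, and the call was kept without Rpl3l-/- heart 3 (adjusted p of 0.0412) and lost without Rpl3l-/- heart 1, 2 or 4 or any Rpl3l+/+ heart (0.0691 to 0.113).

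**Figure D2:**
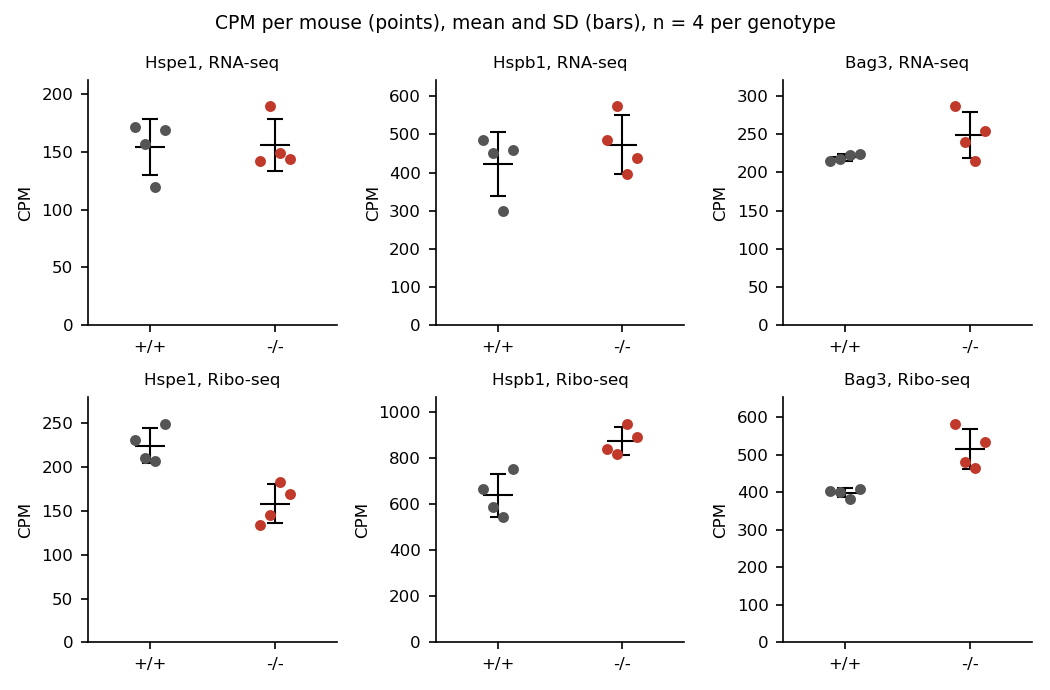
CPM of Hspe1, Hspb1 and Bag3 in each Rpl3l+/+ and Rpl3l-/- heart (points) in RNA-seq and Ribo-seq, with the mean and SD of 4 hearts per group. The genotypes are separate in all 3 Ribo-seq panels, with Hspe1 lower and Hspb1 and Bag3 higher in Rpl3l-/- hearts, and overlap in the RNA-seq panels.

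The next members by p were not called but stood apart by genotype, and they were chosen for description after their values were seen. Separate groups go with a small p, so here and in the next paragraph the separation adds no support beyond that p. Hspb1 footprints were at 667, 588, 543 and 754 CPM in Rpl3l+/+ and 839, 816, 949.5 and 893 CPM in Rpl3l-/- hearts, with no overlap between the groups and a log2 fold change of 0.45 ± 0.10, adjusted p = 0.0542. Bag3 footprints were at 404, 401, 383 and 409 CPM in Rpl3l+/+ and 584, 481, 464 and 534 CPM in Rpl3l-/- hearts, again without overlap, at 0.37 ± 0.09, adjusted p = 0.0638. With DESeq2 both passed, at adjusted p = 0.00518 and 0.0126. Hspb1 mRNA was at 485, 450.3, 299 and 458 CPM in Rpl3l+/+ and 486, 574, 396 and 438 CPM in Rpl3l-/- hearts, which overlapped.

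Several proteasome genes leaned down in footprints without being called. Psmd14 stood at 86.3, 86.9, 101 and 101 CPM in Rpl3l+/+ and 69.4, 72.1, 79.8 and 70.9 CPM in Rpl3l-/- hearts, with no overlap and a change of -0.36 ± 0.10, adjusted p = 0.109. Psma3, a subunit of the outer 20S ring, stood at 162, 173, 189.6 and 190.0 CPM in Rpl3l+/+ and 151, 133, 139 and 154 CPM in Rpl3l-/- hearts, also without overlap (-0.31 ± 0.09, adjusted p = 0.114). Psme3 gave -0.39 ± 0.11, adjusted p = 0.116 and Psmc6, an ATPase of the 19S base, -0.23 ± 0.08, adjusted p = 0.196. Psmb6 went the opposite way, from 212, 194, 209.9 and 217 to 231, 223, 267 and 285 CPM, with no overlap (0.27 ± 0.09, adjusted p = 0.182). Outside the proteasome, Dnajc8 gave -0.43 ± 0.13, adjusted p = 0.115 and Bag6 0.19 ± 0.08, adjusted p = 0.23, each with separate groups. Dnajb6, whose promoter stretch is printed above, gave -0.25 ± 0.12, adjusted p = 0.301.

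By class, the medians in heart Ribo-seq were -0.18 for the 20S core (3 positive, 6 negative), -0.07 for the 19S particle (3 and 10), -0.10 for activators and assembly factors (0 and 5), 0.15 for Hsp70 (4 and 2), 0.16 for small heat shock proteins (4 and 0), -0.03 for chaperonins (2 and 2), 0.07 for J-domain proteins (13 and 7), 0.28 for Bag (2 and 0) and -0.06 for prefoldin (1 and 2). The median of all 67 members was 0.00, and that of all genes 0.02. At an unadjusted p under 0.05 there were 20 members, 29.9% beside 17.0% of all genes. The members' median SE was 0.104 and that of all genes 0.165. Cell type markers moved in the same libraries. Of 6 cardiomyocyte markers, 5 were positive and 1 negative in footprints (-0.02 to 0.26), 1 with an unadjusted p under 0.05 and none called. All 7 skeletal muscle fibre markers in the table were positive in footprints (0.22 to 1.47), 5 with an unadjusted p under 0.05 and none called (smallest adjusted p = 0.127 in edgeR), and their summed level, mostly Ckm, was 3329 to 3656 CPM in Rpl3l+/+ and 3723 to 4676 CPM in Rpl3l-/- hearts, without overlap. In RNA-seq 1 of 5 such markers was positive and 4 negative. The summed level of myoblast markers, mostly Des, was 2416 to 2807 and 2814 to 3069 CPM in footprints. Such a sum follows mostly a single gene, and bulk tissue does not show which cells its reads came from. Neither sum is therefore read as an amount of skeletal muscle fibres or of myoblasts in the heart. The part of these markers, and of the airway and blood transcripts given above, in the values of the Bag, small heat shock and other genes was not tested.

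**Figure D3:**
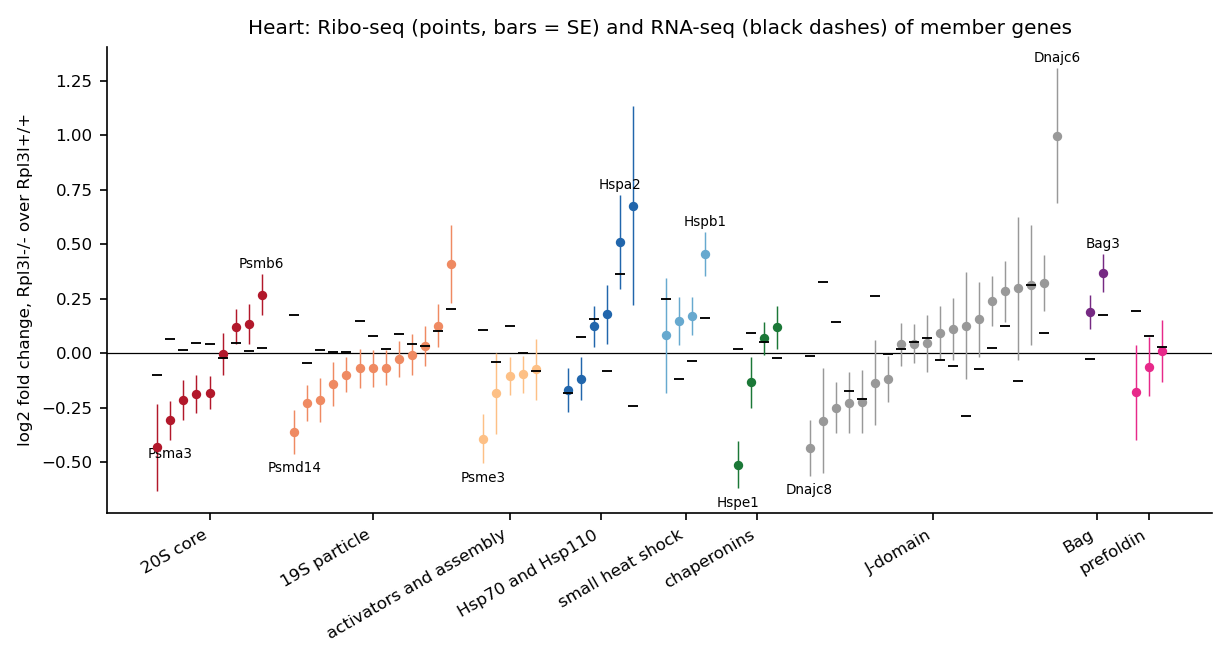
Log2 fold change of footprints, Rpl3l-/- over Rpl3l+/+ heart (points with SE bars, 4 hearts each), with that of mRNA as a black dash, for each tested member by class, without Hspg2 and Hspbap1. Most 20S, 19S and activator points lie at or below 0 and the Bag and small heat shock points above it, with Hspe1 at -0.51 as the called gene.

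Whether footprints moved apart from mRNA was tested as TE. None of 66 members was called in edgeR, beside 0% of all genes, 6 had an unadjusted p under 0.05 (9.09%, beside 6.39% of genes), and DESeq2 also called none. Psmd14 had the smallest p, at -0.53 ± 0.17, adjusted p = 0.514, followed by Hspe1 at -0.53 ± 0.18, adjusted p = 0.589. On the other side Bag6 gave 0.22 ± 0.12, adjusted p = 0.803 and Hspa1l 0.93 ± 0.54, adjusted p = 0.83. Hspa1l footprints were at 46.1 CPM in Rpl3l-/- heart 1 and at 10.3 to 16.03 in the other 3, and without that heart its TE change was 0.17. The class medians were -0.22 for the 20S core, -0.11 for the 19S particle and 0.24 for small heat shock proteins.

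Disome-seq, a readout of stacked ribosomes, counted 35 members deeply enough to test. None was called, beside 0% of all 631 genes, and none had an unadjusted p under 0.05, beside 3.65% of genes; DESeq2 called none. Psme4 gave 0.90 ± 0.45 and Psme1 0.76 ± 0.45 on the positive side, Psmd12, a 19S lid subunit, -0.85 ± 0.41 and Psma5 -0.68 ± 0.38 on the negative side, all with an adjusted p of 0.939. Psme4 disomes stood at 127, 69.5, 64.9 and 73.4 CPM in Rpl3l+/+ hearts and at 175, 146, 159.7 and 178 in Rpl3l-/- hearts. The groups did not overlap, but these were 3 to 18 reads and 7 to 31 reads a library, and at this depth the difference did not pass the test.

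Taken over the monosome footprints of the same gene, again none of 35 was called (0% of all genes), and 5 had an unadjusted p under 0.05, 14.3% beside 9.51% of genes. Psme4 gave 0.93 ± 0.26, adjusted p = 0.272 and Psme1 0.77 ± 0.38, adjusted p = 0.524, against -0.69 ± 0.26, adjusted p = 0.447 for Bag6 and -0.76 ± 0.30, adjusted p = 0.459 for Psma5. The median was -0.20 for members and -0.11 for all genes. Within Rpl3l+/+ hearts the log2 ratio of disomes to monosomes had a median of 0.13 over members and 0.20 over all genes, with 0.42 for chaperonins, 0.21 for the 20S core, 0.15 for the 19S particle, -1.08 for 3 small heat shock proteins and -2.69 for Hspg2. The 3 small heat shock genes were split, with Hspb1 at 0.91, Hspb7 at -1.08 and Hspb6 at -1.29.

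In C2C12 cells the study asked what either protein does when made in excess. The 3 comparisons share cultures, so their values are given side by side and their overlap is not read as a result. In RNA-seq of RPL3L OE over control, 6 of 66 members were called (9.09%, beside 9.67% of all genes), 2 higher and 4 lower. Of RPL3 OE over control, 7 were called (10.6%, beside 17.2%), 6 higher and 1 lower with TMM and 5 higher and 3 lower with library totals. Of RPL3L OE over RPL3 OE, 17 were called (25.8%, beside 27.6%), 5 higher and 12 lower. Most changes were under 0.3 on the log2 scale.

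Hspa5 mRNA rose in RPL3L OE cells, from 352, 383 and 367 CPM in control cultures to 422, 410.2 and 415, with no overlap between the groups (0.18 ± 0.04, adjusted p = 0.000185). In RPL3 OE cultures it was at 357, 393 and 367 CPM. Hspa4l, an Hsp110 that recharges Hsp70 with nucleotide, fell from 118, 114 and 119.8 CPM to 99.4, 95.3 and 91.1 in RPL3L OE cells, again without overlap (-0.31 ± 0.05, adjusted p = 1.36e-06). Both calls were kept under all 15 alternatives. Hspg2 rose (0.16 ± 0.04, adjusted p = 0.00481), and Dnajb1 (-0.17 ± 0.05, adjusted p = 0.0134), Dnajc8 (-0.16 ± 0.05, adjusted p = 0.016) and Psma5 (-0.15 ± 0.04, adjusted p = 0.0103) fell. These 4 calls were weaker: the count of 6 went to 3 without control culture 3 and to 3 without RPL3L OE culture 3. The 20S core had a median of -0.06 (1 positive, 7 negative) and the 19S particle of -0.04 (1 and 12).

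In RPL3 OE cells 4 of the 6 called rises were of proteasome genes. Psmc1, an ATPase of the 19S base, stood at 259.6, 276 and 261 CPM in control and 306, 293 and 303 CPM in RPL3 OE cultures, with separate groups (0.18 ± 0.04, adjusted p = 0.000108). Psma6 stood at 202, 198 and 199 CPM in control and at 220.5, 225 and 229 in RPL3 OE cultures (0.17 ± 0.04, adjusted p = 0.000263). Psma3 rose by 0.14 ± 0.03 and Psmc2 by 0.16 ± 0.04, and these 4 calls were kept under all 15 alternatives. Hspg2 (0.12 ± 0.04, adjusted p = 0.0291) and Dnajc10 (0.11 ± 0.04, adjusted p = 0.0429) rose and Pfdn2 (-0.15 ± 0.05, adjusted p = 0.0382) fell.

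Psmc1, Psma6 and Psma3 all lie on chromosome 12, whose other genes moved with them. The median log2 fold change of the 210 other chromosome 12 genes in RPL3 OE over control was 0.17, with 88 genes of the chromosome called higher and 3 lower, and each RPL3 OE culture stood 0.175 to 0.185 above the rest of the genome there. The control cultures stood at -0.00476 to 0.00935. Measured from this median, Psmc1 was at 0.01, Psma6 at 0.00 and Psma3 at -0.03. Psmc2 on chromosome 5, where the median was 0.07, was at 0.10. In RPL3L OE over RPL3 OE the chromosome 12 median was -0.22 (3 genes higher, 89 lower), and the same 3 genes were at -0.03, -0.01 and 0.01 from it. The part of the chromosome in these calls was not tested.

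**Figure D4:**
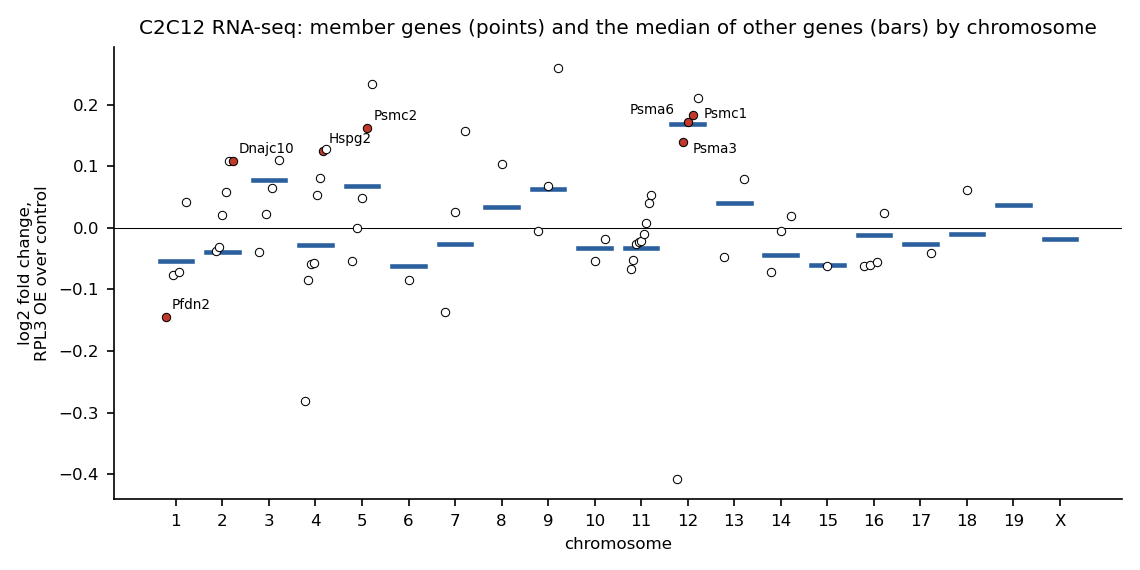
Log2 fold change of mRNA, RPL3 OE over control (3 cultures each), of each tested member by chromosome (points, red where the adjusted p was under 0.05), with bars at the median of the other genes of the chromosome, without 3 members under -0.45. The chromosome 12 bar is at 0.17, and 3 of its 5 members are called and lie at it.

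Of RPL3L OE over RPL3 OE, Psmc1 was lower, at -0.25 ± 0.04, Psma6 at -0.23 ± 0.04, Psma3 at -0.21 ± 0.04, Psmc2 at -0.21 ± 0.04, Psma5 at -0.17 ± 0.04, Psmb2 at -0.17 ± 0.04 and Psmd1 at -0.15 ± 0.04. Of the 20S genes tested, 4 of 8 fell, as did 4 of 13 genes of the 19S particle, and none of either rose, where 14.4% of all genes were called lower and 13.3% higher. Of these 8 genes, Psmc1, Psma6 and Psma3 stood at the chromosome 12 median as given above and Psma5 at -0.04 from that of chromosome 3, while Psmc2 was at -0.09, Psmb2 at -0.15, Psmd1 at -0.24 and Psmd11 at -0.15 from the medians of their chromosomes. Dnajc25 (-0.35 ± 0.08), Dnajb1 (-0.28 ± 0.05) and Hspa4l (-0.27 ± 0.05) were lower too, the last 2 at -0.17 and -0.13 from their chromosome's median. Hspa12b (1.78 ± 0.53, adjusted p = 0.00728) was higher, on 3 to 4 reads a culture in RPL3 OE and 7 to 19 in RPL3L OE, and was lost without RPL3L OE culture 1 (adjusted p of 0.122). Hspa5 (0.16 ± 0.04), Pfdn2 (0.22 ± 0.05), Dnajb5 (0.39 ± 0.15) and Cct7 (0.11 ± 0.03) were also higher.

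In Ribo-seq, 10 of 65 members were called in RPL3L OE over control (15.4%, beside 12.2%), 2 higher and 8 lower with TMM and 5 and 5 with library totals. For RPL3 OE over control there were 4 (6.15%, beside 11.7%), 2 in each direction with TMM and 5 higher and 1 lower with library totals. For RPL3L OE over RPL3 OE there were 13 (20%, beside 19.5%), 4 higher and 9 lower. Hspb1 footprints fell in both lines. They stood at 1255, 1381 and 1332 CPM in control, 1064, 1059 and 1171 in RPL3 OE and 1077, 1074 and 1031 in RPL3L OE cultures. Every control culture lay above every culture of the other groups, at -0.27 ± 0.05, adjusted p = 0.00045 for RPL3 OE and -0.32 ± 0.05, adjusted p = 6.2e-05 for RPL3L OE, and both calls were kept under all 15 alternatives. Hspb1 mRNA was at 556, 556 and 555 CPM in control, at 553, 535 and 519.8 in RPL3 OE and at 514, 549.6 and 556 in RPL3L OE cultures, with no call.

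Bag6 footprints fell in RPL3L OE cells, from 355, 349.5 and 346 to 316, 299.6 and 299.6 CPM (-0.20 ± 0.05, adjusted p = 0.00506), and so did Hspb6, from 30.5, 27.1 and 29.5 to 22.1, 22.9 and 22.7 CPM (-0.37 ± 0.11, adjusted p = 0.0201), each with separate groups. Psmb2, Psmb3 and Psmb6 of the 20S beta ring fell, at -0.18 ± 0.05, -0.17 ± 0.05 and -0.16 ± 0.05, Psmd11 at -0.16 ± 0.05 and Hspg2 at -0.15 ± 0.05. Pfdn4 (0.24 ± 0.07, adjusted p = 0.02) and Dnaja1 (0.17 ± 0.05, adjusted p = 0.0225) rose. The count of 10 went to 5, 4 and 5 without control culture 1, 2 and 3, to 3 and 4 without RPL3L OE culture 2 and 3, and to 4 with DESeq2. In RPL3 OE cells Psmc1 (0.19 ± 0.05, adjusted p = 0.00949) and Psma3 (0.19 ± 0.05, adjusted p = 0.0162) rose, where the chromosome 12 median was 0.18, and Bag3 (-0.20 ± 0.06, adjusted p = 0.0235) fell. This count of 4 went to 2 without control culture 2 or 3.

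Between the 2 overexpressing lines, RPL3L OE footprints were higher for Hspa12b (1.46 ± 0.36, adjusted p = 0.0026), Hspe1 (0.19 ± 0.06, adjusted p = 0.015), Dnajc3 (0.18 ± 0.06) and Dnaja1 (0.14 ± 0.05). Hspe1 stood at 273, 318 and 308 CPM in control, 272, 274 and 319 in RPL3 OE and 315, 338 and 328 in RPL3L OE cultures, where the third RPL3 OE culture reached into the RPL3L OE range. Lower were Psmc1 (-0.25 ± 0.05), Psma3 (-0.18 ± 0.05) and Psma5 (-0.16 ± 0.05) of the proteasome, Hspg2 (-0.22 ± 0.05), Hspb6 (-0.34 ± 0.10), Hspa4l (-0.21 ± 0.05), Dnajb1 (-0.21 ± 0.06), Dnajc25 (-0.33 ± 0.09) and Cct3 (-0.16 ± 0.05). Chromosome medians differed in these libraries too. From the rest of the genome, chromosome 12 (Psmc1, Psma3) stood at 0.181 to 0.189 in RPL3 OE and 0.0133 to 0.0232 in RPL3L OE cultures. Chromosome 3 (Psma5, Hspa4l, Cct3) stood at 0.0835 to 0.0926 and -0.0287 to -0.0145. Chromosome 8 (Dnajb1) stood at -0.0047 to 0.0087 and -0.108 to -0.0875. The part of the chromosomes in these calls was not tested.

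In TE, 4 of 64 members were called in RPL3L OE over control (6.25%, beside 2.2% of all genes), 2 in each direction with TMM and 4 higher and 2 lower with library totals. Hspg2 fell, at -0.32 ± 0.07, adjusted p = 0.00357, with mRNA at 186, 174 and 163 CPM in control and 203, 188 and 194 in RPL3L OE cultures. Its footprints were at 311, 333 and 315 CPM in control and 299, 266 and 294 in RPL3L OE cultures. The mRNA was higher and the footprints lower in RPL3L OE cells, and the groups overlapped in neither assay. Hspb1 fell, at -0.28 ± 0.06, adjusted p = 0.00966, and Dnajc8 (0.27 ± 0.08, adjusted p = 0.0397) and Hspa4l (0.26 ± 0.08, adjusted p = 0.0496) rose. The Hspg2 call was kept under all 15 alternatives. The count of 4 went to 2 with DESeq2, to 2, 1 and 1 without control culture 1, 2 and 3, and to 2, 1 and 1 without RPL3L OE culture 1, 2 and 3. At an unadjusted p under 0.05 there were 12 members, 18.8% beside 16.1% of genes.

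For RPL3 OE over control no member was called in edgeR, beside 0.0925% of genes, while 4 had an unadjusted p under 0.05 (6.25%, beside 8.36%) and DESeq2 called 1. The count went to 1 without RPL3 OE culture 3. Hspb1 gave -0.22 ± 0.06, adjusted p = 0.28, Psmd11 -0.14 ± 0.06, adjusted p = 0.539, Hspa4l 0.21 ± 0.07, adjusted p = 0.418 and Psme3 0.15 ± 0.07, adjusted p = 0.542. For RPL3L OE over RPL3 OE none was called in edgeR, beside 0.277%, with 5 under an unadjusted p of 0.05 (7.81%, beside 9.29%) and none in DESeq2. The count went to 1 without control culture 1 or 2, which enter through the shared estimate of spread. Hspg2 gave -0.26 ± 0.07, adjusted p = 0.0567, Hspb6 -0.27 ± 0.15, adjusted p = 0.622, Dnajc8 0.22 ± 0.07, adjusted p = 0.293 and Hspe1 0.18 ± 0.07, adjusted p = 0.426.

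The cultures also differed in markers of myoblasts and fibroblasts. Of 8 myoblast markers 7 were in the table. In RNA-seq 5 of them were called higher and 0 lower in RPL3L OE over control, beside 9.67% of all genes called. In RPL3 OE over control, beside 17.2% of all genes, 0 of these markers were higher and 5 lower. Their summed level was 5109 to 5145 CPM in control, 4979 to 5052 in RPL3 OE and 5395 to 5668 in RPL3L OE cultures. That of fibroblast markers was 1742 to 1825, 2631 to 2659 and 1917 to 1957 CPM. The part of these differences in the values above was not tested.

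Other genes of protein quality control were read from 4 lists: partner chaperones and stress regulators (17 of 30 in the table), the unfolded protein response of the endoplasmic reticulum (12 of 26), ubiquitin delivery to the proteasome (11 of 30) and ribosome-associated quality control (15 of 20). None of their genes was called in any Rpl3l-/- heart comparison, where 0% to 0.688% of all genes were called. The list medians in heart Ribo-seq were -0.10, 0.20, -0.11 and 0.08. In C2C12 RNA-seq of RPL3L OE over control, 1 of 15 tested partner chaperones was higher and 2 lower, 1 of 12 unfolded protein response genes was higher, 1 of 11 proteasome partners was lower, and none of 15 quality control genes was called. Of RPL3 OE over control, the counts were 4 and 1, 3 and 0, 0 and 1, and 1 and 3. Beside these, 9.67% of all genes were called in RPL3L OE over control and 17.2% in RPL3 OE over control.

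The genes named from these lists were chosen after their values were seen. The crystallin Cryab, a small heat shock protein of muscle outside the symbol rule, fell in RPL3L OE cells (-0.25 ± 0.04 in RNA-seq and -0.51 ± 0.05 in Ribo-seq) and in RPL3 OE cells (-0.29 in Ribo-seq). In Ribo-seq of RPL3L OE over control, where 12.2% of all genes were called, 3 partner chaperones were higher and 2 lower. The Hsp90 partner Chordc1 led the rises (0.44 ± 0.07). Atf4, the transcription factor of the integrated stress response, rose by 0.18 ± 0.03 in mRNA of RPL3L OE cells. In TE of RPL3L OE over control Chordc1 (0.33) rose, and Cryab (-0.26), the ubiquitin gene Ubb (-0.27) and Gcn1l1 (-0.31), an older symbol for the ribosome collision sensor Gcn1, fell. In heart over control C2C12 RNA-seq, 8 partner chaperones were higher and 7 lower of 16, 3 and 7 of 12 unfolded protein response genes, 4 and 3 of 11 proteasome partners, and 4 and 7 of 15 quality control genes. Of all genes 82.1% were called there.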

How the data were processed

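Per the study's methods, the authors trimmed footprint reads with cutadapt and the FASTX-Toolkit, removed rRNA reads, aligned the rest with STAR (GRCm38.p6, mm10), allowing several mapping places, and collapsed duplicates with UMI-tools. Per the labels, RNA-seq used cutadapt, STAR and featureCounts. The authors deposited raw counts per transcript and library. Each transcript stood on 2 identical lines, of which 1 was used, and 23662 of 23877 transcripts matched GENCODE M21. Counts followed coding length: of same-gene transcript pairs of equal coding length, whose whole lengths differed by a median ratio of 2.01 to 2.04, 99.3% to 99.6% had counts within 10%. Each gene was read from its transcript of highest mean level over 34 libraries, and the Disome-seq columns of a heart were summed. Fits ran over all transcripts whose mean reached 10 counts, by edgeR 4.0.16 quasi-likelihood tests in R 4.3.3 with TMM and Benjamini-Hochberg adjustment, called at an adjusted p under 0.05. TE and disome over monosome were interaction terms. The procedure was tested on simulated data. CPM used TMM-scaled library sizes. Alternatives were DESeq2 1.42.0, library totals, other count minimums, 1 transcript per gene, a replicate block and each library left out. Genes named were the up to 10 largest called rises and falls of a comparison, or without calls the 2 of smallest p in each direction, and the highest and lowest members of a class. The symbol rule uses no measured value, but it and the lists were drawn up with earlier results of these data known. Same-numbered Ribo-seq and Disome-seq libraries deviated together (r of 0.21 to 0.42 in 8 of 8), which other same-numbered libraries did not always do. For RNA-seq with Ribo-seq of Rpl3l-/- hearts, r was 0.54 and 0.44 for numbers 1 and 4. It was -0.54 and -0.57 for numbers 2 and 3. Whether a number names the same heart in each assay was not tested. Replicates were taken as labelled, and p-values measure the spread between them. Intervals on counts cover counting error only.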

Additional observations from a re-analysis of the deposited data

Results flagged for a closer look

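Of 80 groups of 4 hearts examined (20 genes), 4 had 1 heart far from the other 3. This share is the one that chance gives, about 1 in 20. Hspe1 mRNA was at 189.6 CPM in Rpl3l-/- heart 2 and at 142 to 149 in the others. Pfdn5 mRNA was at 257 CPM in the same heart and at 185 to 196 in the others. Dnajc10 mRNA was at 28.7 CPM there and at 36.4 to 38.0 in the others. The TE value of Hspa1l rests on its footprints, which were at 46.1 CPM in Rpl3l-/- heart 1 and at 10.3 to 16.03 in the others.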

How the results depend on the processing

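Counts of called members in heart RNA-seq, TE, Disome-seq and disome over monosome stayed at 0 under all alternatives. In heart Ribo-seq the count of 1 became 3 with DESeq2 (Hspb1 and Bag3 higher, Hspe1 lower), 0 with 1 transcript per gene and 0 without a filter on low counts. With a replicate block it became 3 (Hspb1, adjusted p = 0.0454, and Dnajc6, 0.0465, higher, and Hspe1, 0.0477, lower). Same-numbered hearts of the genotypes are different mice, and no label states that they are paired. Leaving out libraries gave 0 to 1: 0 without Rpl3l-/- heart 1, 2 or 4 or Rpl3l+/+ heart 2, 3 or 4, and without Rpl3l+/+ heart 1 the single call was Dnajc6, which was higher (adjusted p = 0.0369). In C2C12 DESeq2 gave 4 calls for RPL3 OE over control in RNA-seq, 4 for RPL3L OE over control and 6 for RPL3L OE over RPL3 OE in Ribo-seq, and in TE 2 for RPL3L OE over control and 1 for RPL3 OE over control. In TE of RPL3L OE over RPL3 OE library totals, a mean count of at least 50 and the replicate block gave 1 call each. Leaving out 1 culture gave 3 to 8, 5 to 8 and 14 to 18 calls in RNA-seq (RPL3L OE over control, RPL3 OE over control, RPL3L OE over RPL3 OE), 3 to 13, 2 to 4 and 9 to 16 in Ribo-seq, and 1 to 4, 0 to 1 and 0 to 1 in TE, and for heart over C2C12 48 to 53 in RNA-seq and 33 to 45 in TE. The replicate block gave 6, 5 and 17 calls in C2C12 RNA-seq, 9, 5 and 13 in Ribo-seq and 4, 0 and 1 in TE; numbers of cultures share no stated origin. With library totals 22 of 68 members turned direction in heart over C2C12 RNA-seq and 11 of 67 in TE. Among genes followed singly, directions turned for Hspa8 (-0.36) and Hspe1 (-0.77) in heart over C2C12 RNA-seq and Psma3 (0.37) in TE with library totals, and for Psma3 measured from its chromosome's median, an alternative chosen after seeing the data (0.012 in RPL3L OE over RPL3 OE, -0.030 in RPL3 OE over control). The cause of these changes was not tested. Of values of single genes, 3398 kept direction and side of the threshold, 154 lost it, 22 gained it and 33 moved by more than the error. Depth limits Disome-seq most, at 39016 to 175747 counts a library.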

Other observations

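Dnajc6, which encodes auxilin, the J-domain protein that uncoats clathrin vesicles, had footprints with almost no mRNA counts, and was singled out after its values were seen. RNA-seq held 0, 0, 3 and 1 reads of it in Rpl3l+/+ and 0, 0, 8 and 0 in Rpl3l-/- hearts. Ribo-seq held it at 17.9, 6.06, 6.33 and 10.6 CPM in Rpl3l+/+ and at 29, 21.3, 14.8 and 19.1 in Rpl3l-/- hearts, where the groups overlapped (1.00 ± 0.31, adjusted p = 0.13 in edgeR). In control C2C12 cultures it was at 9.92, 18.2 and 14.4 CPM in Ribo-seq, and C2C12 RNA-seq held at most 9 reads a library. A TE could not be tested for it, since it passed the count filter in Ribo-seq only.

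Dnajc14 had the opposite imbalance. It stood at 55.6 ± 6.02 TPM in mRNA and 5.37 ± 1.61 in footprints of Rpl3l+/+ heart (SD, n = 4), and 138 ± 5.29 and 25.3 ± 2.29 in control C2C12 cells (SD, n = 3), the lowest TE of all members in both.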
